A study of Mus musculus with 6 samples.

Results

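A set of 9 genes that write, remove or read cytosine methylation in DNA were followed through RNA-seq of mouse thyroid glands. They were chosen by name, for these roles, with earlier results of these data known. They are the dioxygenases *Tet1*, *Tet2* and *Tet3*, the methyltransferases *Dnmt1*, *Dnmt3a* and *Dnmt3b*, the maintenance factor *Uhrf1*, the glycosylase *Tdg* and the methyl-CpG binding protein *Mbd2*. All 9 were among the 21878 genes of the count table and all 9 had enough reads to be among the 14143 genes tested. The 6 libraries came from thyroid glands of female mice at 12 weeks of age. Of these, 3 carried the label Thy-Tet1+/+ and are described as wild-type littermate controls, and 3 carried the label Thy-Tet1-/-. The latter genotype comes from a floxed *Tet1* allele and a Cre transgene directed to follicular epithelial cells, so the other cells of the gland keep the allele. No agent was given to either group in the labels, and each library stands for one mouse.

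DNA methylation in mammals sits mainly on the cytosine of CpG. DNMT3A and DNMT3B place it on unmethylated DNA, while DNMT1 copies it to the new strand after replication, guided by UHRF1, which binds hemimethylated CpG. TET enzymes use oxygen, iron and 2-oxoglutarate to oxidise 5-methylcytosine stepwise, and TDG cuts out the most oxidised forms so that base excision repair can restore cytosine. MBD2 binds methylated CpG and brings in a repressor complex.

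The depth of the libraries lay between 8867683 and 19950898 counts, at which 3 counts, used as the lower limit of detection, equalled 0.152 to 0.356 CPM (read counts scaled to library size with the TMM factors of edgeR). That floor covers counting error only. Thyroglobulin (*Tg*), the hormone precursor made by follicular cells, took 21.2% to 29.4% of the counts. The summed level of 12 follicular cell markers was 257000 to 317000 CPM in Thy-Tet1+/+ and 194000 to 240000 CPM in the 3 labelled Thy-Tet1-/-, so the groups did not overlap. Nearly all of that sum was *Tg*, at 252500 to 313400 CPM and 190800 to 236400 CPM. Of the 11 markers tested, 6 had a positive and 5 a negative log2 fold change, so the sum describes *Tg* and not the list. The protocol text speaks of retinas, but 8 retina markers summed to 0.83 to 1.62 CPM. In whole tissue, fewer cells of a type and less RNA per cell cannot be told apart. Of the 6 libraries, 2 stood apart in 14 lymphocyte and thymocyte markers, which summed to 200 CPM in Thy-Tet1+/+ replicate 1 and 815 CPM in the library labelled Thy-Tet1-/- replicate 3, against 19.5 to 53.5 CPM in the other 4. *Rag1*, which cuts antigen receptor genes in developing lymphocytes, had 41.5 and 127 CPM in those libraries and at most 0.107 CPM in the others. Parathyroid markers summed to 192 to 31300 CPM and skeletal muscle markers to 40.7 to 7380 CPM, with both groups overlapping. The 6 adipocyte markers summed to 310, 132 and 44 CPM in Thy-Tet1+/+ and 980, 444 and 164 CPM in the 3 labelled Thy-Tet1-/-, also with overlap, and all 6 had a positive log2 fold change, with a median of 1.54. Their part in the results below was not tested.

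*Tet1* (NCBI gene 52463) was examined first because it is the targeted gene. It lies on the minus strand at chr10:62804570-62908996 (GRCm38, GENCODE M21). Its level was 5.69, 3.79 and 3.44 CPM in Thy-Tet1+/+ and 9.36, 9.59 and 12.2 CPM in the 3 labelled Thy-Tet1-/-. Every library labelled Thy-Tet1-/- was therefore above every control, which goes against the label. Every direction given here rests on the labels as deposited, and whether any were exchanged was not tested. The counts behind these levels were low, at 48 to 71 in controls and 162 to 241 in the 3 labelled Thy-Tet1-/-. The log2 fold change was 1.28 (standard error 0.27, 95% interval 0.63 to 1.94), a ratio of means of 2.41. In the quasi-likelihood F test of edgeR, with p-values adjusted over all tested genes after Benjamini and Hochberg, the adjusted p was 0.101 (every adjusted p below comes from this edgeR test unless another tool is named). A two-sided exact permutation test gave p = 0.1, the smallest that 3 against 3 allows. The counts cover the whole gene, the floxed exon is not given in the sources used here, and reads on separate exons were not analysed here, so a deletion of part of the transcript cannot be seen in them.

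*Tet3* (NCBI gene 194388, chr6:83362373-83459084, minus strand), the most abundant of the dioxygenases per kb in this tissue, went the same way. It had 86.3, 51.7 and 57.5 CPM in Thy-Tet1+/+ and 102, 100.6 and 110.9 CPM in the 3 labelled Thy-Tet1-/-. The groups did not overlap, and Thy-Tet1+/+ replicate 1 was the control nearest to the other group. On the log2 scale it was higher by 0.68 (standard error 0.20, 95% interval 0.21 to 1.16, edgeR adjusted p = 0.153). *Tet2* (NCBI gene 214133, chr3:133463679-133545139, minus strand) had 43.0, 26.1 and 24.1 CPM against 43.1, 40.4 and 45.1 CPM. Thy-Tet1+/+ replicate 1, one of the libraries with thymocyte markers, lay inside the other group, and the remaining controls lay below it. That replicate also had the fewest counts, 8867683. Over all tested genes, 23% were highest and 23.1% lowest in it, so its departure is not particular to these members. The log2 fold change of *Tet2* was 0.47 (95% interval -0.07 to 1.02, adjusted p = 0.32 in edgeR), so a difference was not shown. Without both libraries with thymocyte markers, a choice made after the data were seen, the log2 fold changes of *Tet1* and *Tet3* were 1.39 and 0.89 (adjusted p = 0.146 and 0.114 in edgeR). That of *Tet2* was then 0.74 (adjusted p = 0.146 in edgeR) and without Thy-Tet1+/+ replicate 1 alone it was 0.77 (adjusted p = 0.0835 in edgeR). In both settings *Tet2* was within the limits of the study, which are defined below, and its groups did not overlap. Both leave out the control that lay inside the other group, so the lack of overlap follows from that choice. Of all genes, 25.5% and 19.5% had no overlap and were higher in these settings, and 6.33% and 5.97% were within the limits and higher.

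**Figure D1:**
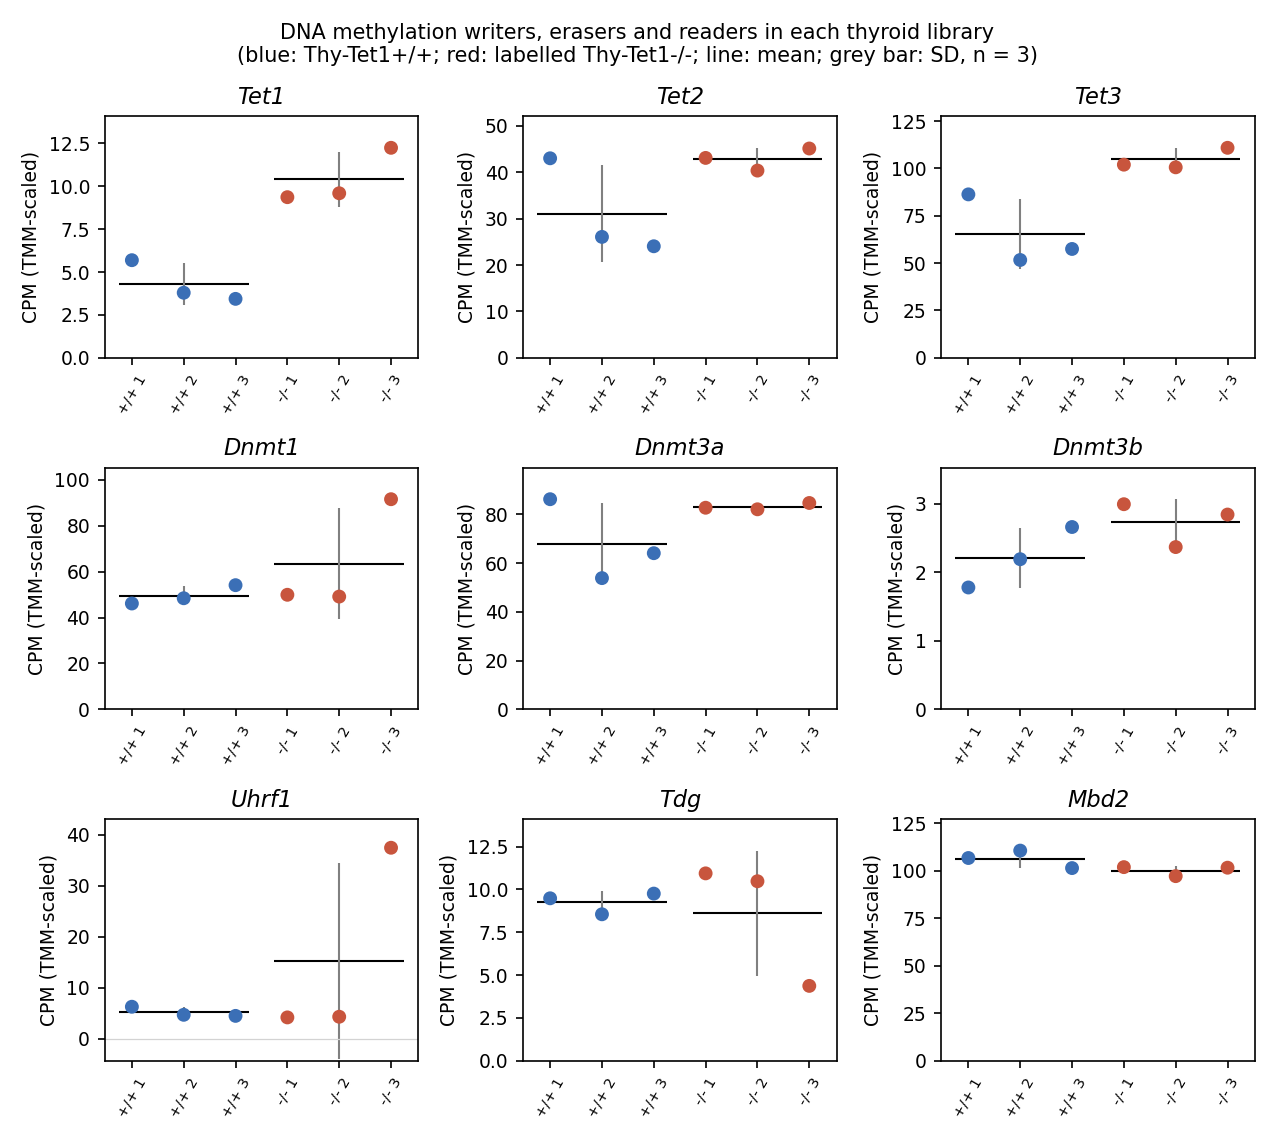
TMM-scaled CPM of the 9 genes in each library, with Thy-Tet1+/+ in blue and libraries labelled Thy-Tet1-/- in red; black lines are means and grey bars SD over 3 libraries. Red points lie wholly above blue points for Tet1 and Tet3, while for Uhrf1, Dnmt1 and Tdg 1 red library, replicate 3, lies far from the other 5.

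The promoters of *Tet1* and *Tet3*, the members that did not overlap between the groups, are shown from RefSeq (GRCm38.p6), from 250 bases before to 50 bases after the start, 5′ to 3′ on the gene's minus strand. Capitals mark CpG, the dinucleotide on which these enzymes act. The window of *Tet1* is chr10:62887275-62887574 and holds 17 CpG, more than 68.6% of the 32851 promoters of the same length. That of *Tet3* is chr6:83441629-83441928 and holds 22 CpG, more than 76.9% of them. The median over all promoters is 7 CpG, and methylation of these windows was not measured. Both windows lie inside the GENCODE gene intervals given above, whose 5′ ends on the minus strand are at chr10:62908996 and chr6:83459084. Starts at those ends are not shown, and the CpG counts do not cover them.
Tet1: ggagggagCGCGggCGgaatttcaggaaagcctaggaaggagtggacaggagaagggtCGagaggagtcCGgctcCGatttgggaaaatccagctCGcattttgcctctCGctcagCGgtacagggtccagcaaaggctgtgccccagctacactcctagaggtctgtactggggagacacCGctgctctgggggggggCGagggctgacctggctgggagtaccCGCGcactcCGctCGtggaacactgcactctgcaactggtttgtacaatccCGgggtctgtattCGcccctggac
Tet3: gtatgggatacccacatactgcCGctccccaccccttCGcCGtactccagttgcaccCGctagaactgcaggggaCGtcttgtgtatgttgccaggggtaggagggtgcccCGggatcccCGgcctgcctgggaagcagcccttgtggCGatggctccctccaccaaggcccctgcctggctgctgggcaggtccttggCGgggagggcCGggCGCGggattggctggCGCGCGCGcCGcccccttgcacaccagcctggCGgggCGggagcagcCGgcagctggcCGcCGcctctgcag

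Because the 3 dioxygenases are counted in the same library, their shares do not depend on how libraries are scaled. Dividing counts by exon length, *Tet1* made up 4.55%, 5.02% and 4.37% of the TET transcripts in Thy-Tet1+/+ and 6.53%, 6.86% and 7.83% in the 3 labelled Thy-Tet1-/-. These shares did not overlap, with means of 4.65% ± 0.338 and 7.08% ± 0.675 (SD, n = 3). *Tet2* made up 28% to 31.6% in controls and 26.5% to 27.6% in the 3 labelled Thy-Tet1-/-, lower and also without overlap. The shares of a library add up to the whole family, so a larger share of *Tet1* means a smaller share of the others together. *Tet3* held 63.3% to 67.6% and 65.7% to 66.7%, with overlap. The summed TET level was 8.09, 4.89 and 5.09 CPM per kb in Thy-Tet1+/+ and 9.27, 9.04 and 10.1 CPM per kb in the 3 labelled Thy-Tet1-/-. The targeted gene, counted over its whole length, thus took a larger share of its family in each library labelled Thy-Tet1-/- than in any control. A deletion of part of the transcript cannot be seen in these shares.

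**Figure D2:**
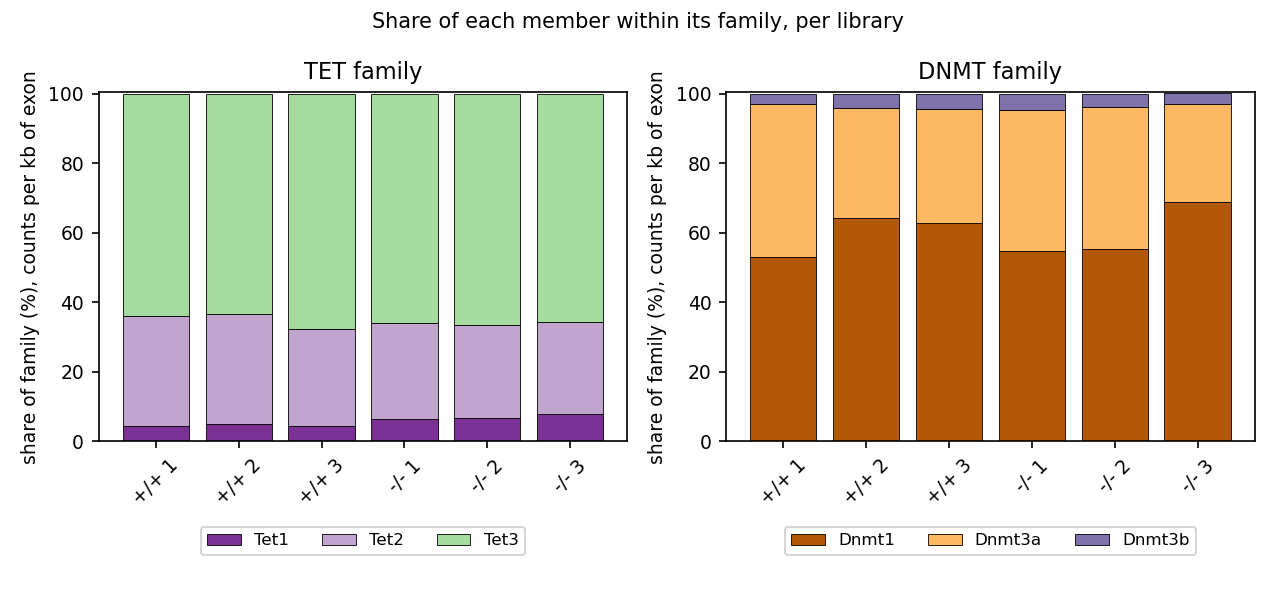
Share of each gene in the summed counts per kb of exon of its family, in percent, for each library; the bars of one library add up to the whole family. Tet1 is 4.37% to 5.02% of the TET family in Thy-Tet1+/+ and 6.53% to 7.83% in the 3 labelled Thy-Tet1-/-, and the DNMT shares overlap between the groups.

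The de novo methyltransferases differed less. *Dnmt3a* (NCBI gene 13435, chr12:3806007-3914443, plus strand) had 86.2, 53.8 and 64.0 CPM in Thy-Tet1+/+ and 82.7, 82.1 and 84.6 CPM in the 3 labelled Thy-Tet1-/-. Again Thy-Tet1+/+ replicate 1, the library with the fewest counts, was the control that reached the other group. Its log2 fold change was 0.29 (95% interval -0.13 to 0.71, adjusted p = 0.422 in edgeR). *Dnmt3b* (NCBI gene 13436, chr2:153649450-153687730, plus strand), which is used chiefly in embryonic cells, was low, at 1.78, 2.19 and 2.66 CPM against 2.99, 2.37 and 2.84 CPM. These rest on 15 to 56 counts, and the interval of its log2 fold change, -0.46 to 1.06, spans both directions.

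*Dnmt1*, *Uhrf1* and *Tdg* shared another pattern, in which 1 library departed from the other 5. *Uhrf1* (NCBI gene 18140, chr17:56303321-56323486, plus strand) had 6.28, 4.70 and 4.49 CPM in Thy-Tet1+/+ and 4.19, 4.32 and 37.5 CPM in the 3 labelled Thy-Tet1-/-. Replicate 3 was 8.34 times the median of the other 5, which all lay between 4.19 and 6.28 CPM. Its log2 fold change of 1.58 had an interval of -0.51 to 3.67 (adjusted p = 0.381 in edgeR), and without replicate 3 it was -0.27. *Dnmt1* (NCBI gene 13433, chr9:20907209-20959888, minus strand) had 46.1, 48.4 and 54.1 CPM against 49.9, 49.1 and 91.6 CPM. Its log2 fold change of 0.36 (95% interval -0.25 to 0.97) became -0.01 without that library. *Tdg* (NCBI gene 21665, chr10:82629828-82650799, plus strand) was lower in that library instead, with 9.48, 8.55 and 9.76 CPM against 10.9, 10.5 and 4.37 CPM. Its log2 fold change was -0.11 (95% interval -0.96 to 0.74) and became 0.2 without replicate 3.

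Other genes were then compared in the same library. A list of 15 proliferation genes summed to 665 CPM in the library labelled Thy-Tet1-/- replicate 3, against 147 to 234 CPM in the other 5, and all 15 were highest there. All 7 of the lymphocyte and thymocyte markers that were tested were highest there too, while over all tested genes 20.4% were highest and 17.2% lowest in that library. *Hells*, a chromatin remodeller needed for methylation, had 15.3 CPM in replicate 3 and 1.94 to 3.32 CPM elsewhere. *Neil3*, a glycosylase of dividing cells, had 9.39 CPM against at most 0.762 CPM. *Hells* and *Neil3* were named after their values were seen, and their lists as a whole were mixed. Of 17 tested genes of base excision repair and deamination, 5 were highest and 4 lowest in replicate 3. Of 6 tested factors around the methyltransferases, 3 were highest and 0 lowest there. Among the 9 members, 5 were highest in replicate 3 (*Tet1*, *Tet2*, *Tet3*, *Dnmt1* and *Uhrf1*) and *Tdg* was lowest. Thy-Tet1+/+ replicate 1, which also carried *Rag1*, had the highest *Uhrf1* of the controls, at 6.28 CPM, and the lowest *Dnmt1*, at 46.1 CPM. The part of thymocyte RNA in these levels was not tested.

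**Figure D3:**
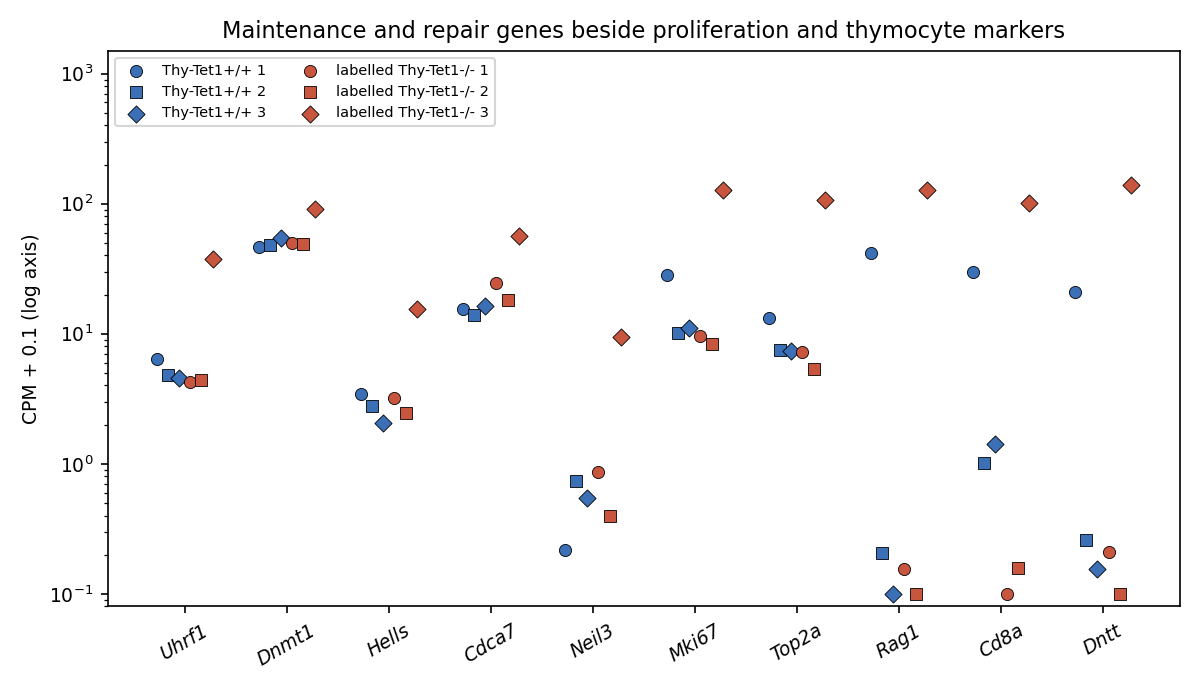
TMM-scaled CPM plus 0.1 on a log axis for Uhrf1, Dnmt1, Hells, Cdca7 and Neil3 beside the proliferation genes Mki67 and Top2a and the thymocyte genes Rag1, Cd8a and Dntt; each marker is 1 library. The library labelled Thy-Tet1-/- replicate 3 (red diamonds) is highest for every gene plotted, and Thy-Tet1+/+ replicate 1 (blue circles) is second for the 3 thymocyte genes. The genes plotted are a selection and not whole lists.

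The promoters of *Uhrf1* and *Dnmt1* were picked because both genes were high in that library, where *Tet1*, *Tet2* and *Tet3* were highest too. They were searched on both strands for 4 letter patterns known for E2F, a factor family active as cells enter S phase. The patterns were TTCCCGC, then TTGGCGC, also TTCGCGC, and finally TTGCCGC. Words that overlap on opposite strands were marked as one stretch. At least 1 pattern stood in 9.57% of all 32851 RefSeq promoters. Among the 13 starts of the 8 members with a promoter in the table, 3 held one: both starts of *Uhrf1* and 1 of the 3 of *Dnmt1*. Every pattern holds a CpG, and these 3 starts held 12, 33 and 33 CpG, beside a median of 7 over all promoters. The share over all promoters is therefore not a like comparison. The first window of *Uhrf1*, chr17:56303087-56303386 on the plus strand, and the *Dnmt1* window with 3 matches, chr9:20952574-20952873 on the minus strand, are shown 5′ to 3′ (GRCm38.p6) with the patterns in capitals. A match is a description of letters, and binding was not measured.
Uhrf1: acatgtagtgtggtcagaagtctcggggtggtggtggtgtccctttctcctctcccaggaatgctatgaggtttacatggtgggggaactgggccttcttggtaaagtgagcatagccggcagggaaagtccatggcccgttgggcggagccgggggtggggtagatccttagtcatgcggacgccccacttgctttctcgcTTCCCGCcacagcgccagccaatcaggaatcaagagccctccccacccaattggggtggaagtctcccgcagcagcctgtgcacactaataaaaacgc
Dnmt1: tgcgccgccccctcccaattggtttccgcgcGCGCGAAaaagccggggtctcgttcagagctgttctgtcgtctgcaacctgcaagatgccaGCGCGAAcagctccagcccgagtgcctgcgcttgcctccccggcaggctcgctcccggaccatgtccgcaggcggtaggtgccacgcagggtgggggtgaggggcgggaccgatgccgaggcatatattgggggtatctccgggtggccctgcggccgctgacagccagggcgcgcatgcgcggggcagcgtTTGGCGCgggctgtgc

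Counts of *Tdg* and *Uhrf1* carry a further limit. *Tdg-ps* matched the *Tdg* transcript at 98.686% identity over 2968 bases and had 0 to 3 counts per library. *Gm5597*, *Gm9855* and *AC122846.1* matched it at 99.329%, 99.246% and 99.015% over 1193, 1194 and 203 bases. *Gm5648* matched *Uhrf1* at 98.302% over 1590 bases, and reads can be split between such copies. Of these copies the count table lists only *Tdg-ps*, so reads on the others cannot be gauged. *Glt8d2* overlaps 367 bases of *Tdg* exon on the opposite strand and had 0.499 to 1.24 CPM, with a log2 fold change of 0.29 (adjusted p = 0.797 in edgeR). The use of strand in the counting is not given, and for *Tet2* and *Dnmt3a* antisense transcripts that the table does not list, *Gm42567* and *Dnmt3aos*, overlap 43 and 133 exon bases.

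*Mbd2* (NCBI gene 17191), the methyl-CpG reader and the member with the highest level per kb, was the least variable. It had 106.7, 110.6 and 101.4 CPM in Thy-Tet1+/+ and 101.9, 97.15 and 101.6 CPM in the 3 labelled Thy-Tet1-/-, with overlap. Its log2 fold change was -0.08 (standard error 0.09), and its interval of -0.31 to 0.14 (adjusted p = 0.677 in edgeR) bounds any difference more tightly than for the other 8 genes. The sign depended on scaling and was positive, at 0.10, with library totals alone.

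A gene was counted as within the limits of the study when it differed by more than 1.5-fold in either direction and its unadjusted p in edgeR's test was under 0.05. Of the 9 members, 2 were (*Tet1* and *Tet3*), both higher in the 3 labelled Thy-Tet1-/-, which is 22.2% of them. Of all tested genes 5.54% were within the limits and higher and 3.66% within them and lower, so that 60.2% of those within them were higher, a percentage that became 86% with library totals alone and 94.5% with scaling to epithelial genes. The same 2 members had no overlap between groups, against 12.5% of all genes without overlap and higher and 14.3% without overlap and lower. No member reached an adjusted p under 0.05 with edgeR, where 0.113% of all genes did, whereas 2 had an unadjusted p under 0.05, as did 18.9% of all genes. By the Wald test of DESeq2 the adjusted p of *Tet1* and *Tet3* was 0.0012 and 0.0195, and by limma-voom 0 members passed. The median log2 fold change of the members was 0.36, beside 0 over all genes. That second median moved to 0.19 with library totals alone and to 0.33 with scaling to epithelial genes, where the log2 fold change of *Tet1* still exceeded it.

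**Figure D4:**
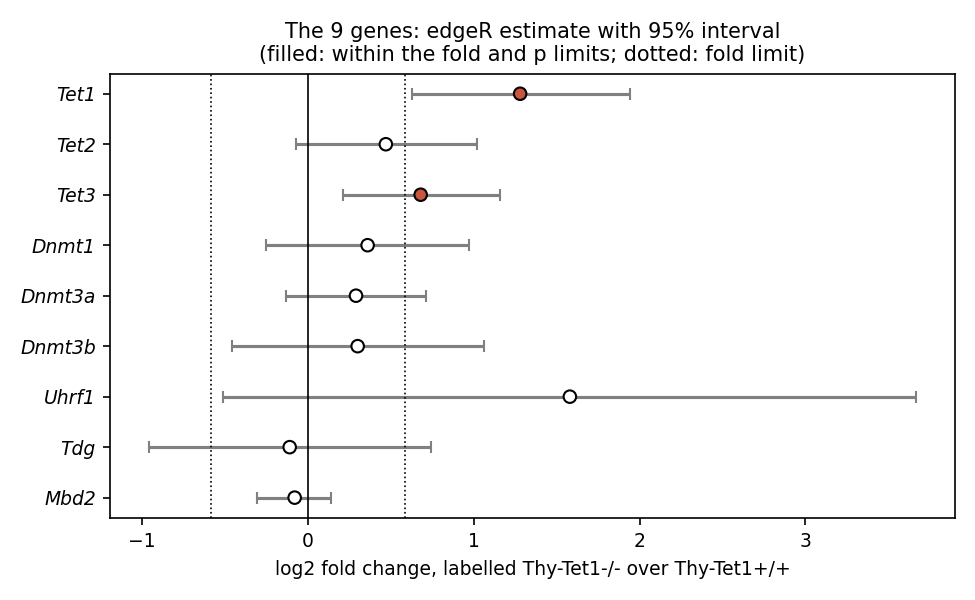
Log2 fold change of each gene, libraries labelled Thy-Tet1-/- over Thy-Tet1+/+, as points with 95% intervals from edgeR; dotted lines are the 1.5-fold limit in either direction and filled points are within the fold and p limits. Tet1 and Tet3 have intervals above 0, and Uhrf1 has the widest, -0.51 to 3.67.

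Levels were compared between genes per kb of exon. In Thy-Tet1+/+ *Mbd2* led with 33.0 ± 1.43 CPM per kb (SD, n = 3), followed by *Dnmt1* with 6.72 ± 0.558. *Dnmt3a* and *Tet3* followed at 4.09 ± 0.995 and 3.90 ± 1.11 CPM per kb. *Dnmt3a* was the higher of them in each control, by little in replicate 1 (5.18 and 5.17 CPM per kb), 2 (3.23 and 3.10) and 3 (3.85 and 3.44). *Tet2* and *Tdg* had 1.84 ± 0.618 and 1.72 ± 0.118 CPM per kb, and *Tet2* was the higher in replicate 1 and the lower in replicates 2 and 3. *Uhrf1* had 1.21 ± 0.230, *Dnmt3b* 0.433 ± 0.0865 and *Tet1* 0.279 ± 0.0784 CPM per kb. *Tet1*, at rank 9 in controls, was at rank 8 in the 3 labelled Thy-Tet1-/- with 0.673 ± 0.103 CPM per kb, and *Tet3*, with 6.26 ± 0.333, stood above *Dnmt3a*, with 4.99 ± 0.081. *Dnmt1* made up 53.1% to 64.2% of the DNMT transcripts per kb in Thy-Tet1+/+ and 54.9% to 68.8% in the other group. The exon length used is that of all annotated exons of a gene merged, and the order depends on it. Undivided by length, *Dnmt3a* had the larger mean share in Thy-Tet1+/+, 56.3% against 41.9% for *Dnmt1*.

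The rest of the pathway was described with 5 lists of 64 tested genes, also chosen with earlier results of these data known. Of these, 8 were within the limits and higher (12.5%) and 2 within them and lower (3.12%), beside 5.54% and 3.66% of all genes tested. In these lists 0 genes reached an adjusted p under 0.05 with edgeR, 14 had an unadjusted p under 0.05, where 18.9% of all genes did, and 6 passed with DESeq2. Among the factors around the methyltransferases *Cdca7*, the partner of *Hells*, was within the limits (15.2 ± 1.23 to 33.0 ± 20.6 CPM, SD, n = 3, log2 fold change 1.12), with 56.6 CPM in replicate 3. Its relative *Cdca7l* was lower (40.1 ± 13.3 to 23.7 ± 2.35 CPM, log2 fold change -0.75). *Usp7*, a deubiquitinase that binds DNMT1 and UHRF1 and was the most abundant of this list, differed by -0.10 on the log2 scale.

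In base excision repair and deamination *Mbd4*, a glycosylase for thymine mispaired in CpG, had 6.64, 6.20 and 6.65 CPM in Thy-Tet1+/+ and 10.9, 11.5 and 13.2 CPM in the 3 labelled Thy-Tet1-/- (log2 fold change 0.87, adjusted p = 0.1 in edgeR). The groups were well apart and each was narrow. *Neil2*, a glycosylase for oxidised bases, and *Apobec3*, a cytidine deaminase, were also within the limits (log2 fold changes 1.08 and 1.32), and *Gadd45g* was lower at -1.36, with Thy-Tet1+/+ replicate 1 at 6.05 CPM inside the other group. The abundant repair genes *Parp1* and *Lig3* had log2 fold changes of -0.23 and -0.21 and overlapped.

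Of 14 other methyl-CpG and CXXC proteins, 1 was within the limits and higher, beside 5.54% of all genes, which is also the background for the single genes counted in the methyl donor and imprinted lists below. *Cxxc5*, a CXXC zinc finger protein, had 30.3, 23.3 and 33.4 CPM in Thy-Tet1+/+ and 57.8, 60.7 and 55.8 CPM in the 3 labelled Thy-Tet1-/-. No library came near the other group, and the difference was 1.00 on the log2 scale (standard error 0.15, adjusted p = 0.073 in edgeR). *Zbtb4* and *Kdm2a*, the most abundant of this list, had log2 fold changes of -0.13 and 0.09. Of 14 genes for the TET cofactors and partners 2 were within the limits. *Ogt*, the GlcNAc transferase that binds TET proteins, had 203, 168 and 191 CPM against 353, 297 and 401 CPM (log2 fold change 0.90, adjusted p = 0.0805 in edgeR). *Idh3b*, a subunit of mitochondrial isocitrate dehydrogenase, had a log2 fold change of 0.64 with overlapping groups. *Sdha* and *Ogdh*, enzymes of the citric acid cycle, differed by 0.02 and -0.06 on the log2 scale. Of 13 methyl donor genes, 1 was within the limits, *Shmt1*, the cytosolic serine hydroxymethyltransferase (1.82 ± 0.339 to 4.01 ± 0.942 CPM, SD, n = 3, log2 fold change 1.14). *Mat2a* and *Ahcyl1* had log2 fold changes of 0.05 and -0.10.

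**Figure D5:**
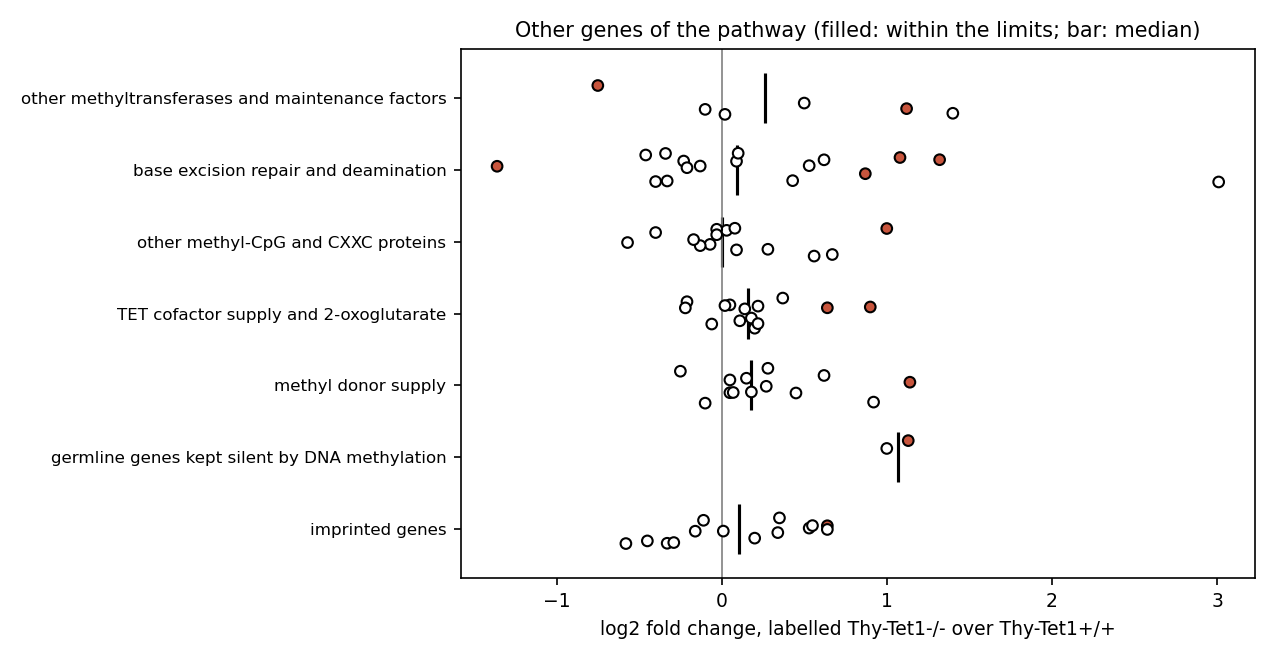
Log2 fold change of the tested genes of each list, libraries labelled Thy-Tet1-/- over Thy-Tet1+/+, 1 point per gene with vertical scatter for legibility, filled where within the limits, and a bar at the list's median. Medians lie between 0 and 0.26 for the pathway lists, and the 2 germline genes lie at 1.00 and 1.13.

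With each of the 6 libraries left out in turn, *Tet1*, *Mbd4*, *Apobec3*, *Cxxc5*, *Ogt* and *Brdt*, a testis gene described below, were within the limits every time. *Tet3* was outside them, at 0.54, without Thy-Tet1+/+ replicate 2. *Shmt1* was outside without the library labelled Thy-Tet1-/- replicate 1, *Neil2* without that library or Thy-Tet1+/+ replicate 2, and *Cdca7l* without either Thy-Tet1+/+ replicate 1 or replicate 2 of the Thy-Tet1-/- label. *Cdca7* was outside without any control or without the library labelled Thy-Tet1-/- replicate 3, where its log2 fold change was 0.48. *Idh3b* was within them in 2 of the 6 and *Gadd45g* in 1, without Thy-Tet1+/+ replicate 1.

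Genes whose silence or allelic expression depends on DNA methylation were read as a further description. Of 16 germline genes, 14 had too few reads to test. *Brdt*, a testis bromodomain protein, was within the limits (2.85, 3.53 and 2.11 CPM against 5.99, 5.45 and 7.11 CPM, log2 fold change 1.13, adjusted p = 0.13 in edgeR), with no overlap. *Sycp3*, of the synaptonemal complex, had 0.593 to 0.721 CPM in Thy-Tet1+/+ and 2.01, 1.72 and 0.355 CPM in the 3 labelled Thy-Tet1-/-, with replicate 3 lowest of all 6. Of 14 tested imprinted genes 1 was within the limits, *Plagl1*, a zinc finger protein (17.9 ± 3.08 to 27.9 ± 3.61 CPM, SD, n = 3, log2 fold change 0.64), though not without Thy-Tet1+/+ replicate 2 or replicate 3 of the Thy-Tet1-/- label, and the abundant *Igf2r* and *Peg3* had log2 fold changes of -0.29 and 0.20. Methylation itself was not measured.

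The genes whose log2 CPM followed *Tet1* most closely over the 6 libraries, by Pearson's r, were *Zfp760* (0.9984), *Atf7ip* (0.9941), *Zcchc2* (0.9922), *Tnrc18* (0.9914) and *Inppl1* (0.9913). All 6 libraries are shared by these values, and the group difference is part of each r. Their log2 fold changes, 0.34 to 0.54, were smaller than that of *Tet1*. Among the members *Tet3* came nearest with r = 0.958, followed by *Tet2* with 0.888, while *Tdg* and *Mbd2* had -0.393 and -0.573.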

How the data were processed

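RNA-seq counts per gene in 6 thyroid libraries, 3 per group by their labels, were used as the authors deposited them, whole-number counts without normalization. The submitters' processing notes name the build mm10, while the aligner and counter are not given in the sources used here. Counts were filtered with filterByExpr, scaled by TMM and compared with the quasi-likelihood test of edgeR 4.0.16 in R 4.3.3, with Benjamini-Hochberg adjustment over all 14143 tested genes. Symbols altered to dates or present more than once, 27 in all, were named by NCBI identifier. Exon lengths and overlaps came from GENCODE M21 and promoters from RefSeq (GRCm38.p6). Log2 CPM had a prior count of 2. The members and lists were chosen with earlier results of these data known. Named genes were all members, every gene of the pathway and methylation-dependent lists within the limits, the 2 most abundant tested genes of each of these lists, the 5 genes most like *Tet1* and genes sharing exons with a member. Alternatives were RLE size factors, library totals, epithelial scaling, DESeq2 1.42.0, limma-voom 3.58.1, other count filters, a replicate block and each library left out. Leaving out both libraries with thymocyte markers, and a robust fit, were added after the data were seen. P-values measure the spread between these 3 mice per group. The biological coefficient of variation was 0.327. The code was tested on simulated data.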

Additional observations from a re-analysis of the deposited data

How the results depend on the processing

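The log2 fold change of *Tet1* was positive in all 16 alternatives (1.14 to 1.57, adjusted p from 0.0012 to 0.325 over edgeR, limma and DESeq2), and so was that of *Tet3* (0.54 to 0.96, adjusted p from 0.0195 to 0.363). DESeq2 gave *Tet1* 1.31 and called 1192 genes with an adjusted p under 0.05, against 16 with edgeR, and gave no p for *Uhrf1*. That count was 25 with at least 10 counts in every library, and 0 to 1 with each library left out (1769 to 2980 by unadjusted p). With library totals alone it was 8, the percentage of genes within the limits that were higher was 86 against 60.2, 4 members had no overlap (23.4% of all genes without overlap and higher, 4.96% lower), and *Tdg* and *Mbd2* reversed to 0.06 and 0.10. With scaling to epithelial genes, 2389 genes were within the limits (94.5% higher) and 0 had an adjusted p under 0.05 (3160 unadjusted), 16 further genes of the pathway were within the limits, 4 members had no overlap (29.5% and 1.57% of all genes), and *Tdg* and *Mbd2* were 0.21 and 0.24. The cause was not tested.

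Leaving out each library in turn gave 2 to 5 members without overlap, where 14.1% to 19.5% of all genes had none and were higher and 18.1% to 21.5% lower. It gave 1 to 3 members within the limits, the 1 being *Tet1* without Thy-Tet1+/+ replicate 2. Of all genes, 3.97% to 5.97% were then within the limits and higher and 3.51% to 4.78% within them and lower. Log2 fold changes then ranged from -0.01 to 0.50 for *Dnmt1*, from -0.27 to 2.01 for *Uhrf1* and from -0.34 to 0.20 for *Tdg*, and *Uhrf1* was within the limits without the library labelled Thy-Tet1-/- replicate 1 or 2. Without the library labelled Thy-Tet1-/- replicate 3, *Dnmt1*, *Uhrf1* and *Tdg* reversed to -0.01, -0.27 and 0.20. Without that library and Thy-Tet1+/+ replicate 1 they were -0.05, -0.11 and 0.23, 6 members had no overlap, as 25.5% (higher) and 28.3% (lower) of all genes had with 2 libraries a group, and 0 genes had an adjusted p under 0.05 (2708 unadjusted). Undivided by exon length, the mean share of *Tet1* in Thy-Tet1+/+ was 4.30%. In Thy-Tet1+/+ and the other group, *Dnmt1* then held 41.9% and 41.6%, *Dnmt3a* 56.3% and 56.6%, and *Dnmt3b* 1.88% and 1.86%.

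With the replicate number as a block, *Tet1* had a log2 fold change of 1.30 (adjusted p = 0.275 with edgeR) and 0 genes had an adjusted p under 0.05 (1900 unadjusted). *Tet1* and *Tet3* were again the members within the limits, beside 5.05% of all genes within them and higher and 3.05% lower. The deviations of same-numbered libraries from their group means correlated at -0.17, -0.37 and -0.19, and no library correlated best with its own number. Pairing by number was thus not seen. With 3 libraries per group these values are few and depend on each other, so they cannot exclude pairing. The depth limits *Dnmt3b* and *Tet1* most, at 15 to 56 and 48 to 241 counts per library.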
